A study of Caenorhabditis elegans with 24 samples.

Results

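The chaperonin containing TCP-1 (CCT, also called TRiC) is the group II chaperonin of the eukaryotic cytosol, and its 8 subunit genes in *C. elegans* were followed across all libraries of the series. They were chosen by name, with earlier results of these data known: *cct-1* (T05C12.7), *cct-2* (T21B10.7), *cct-3* (F54A3.3), *cct-4* (K01C8.10), *cct-5* (C07G2.3), *cct-6* (F01F1.8), *cct-7* (T10B5.5) and *cct-8* (Y55F3AR.3). These are 8 of the 45461 genes in the deposited table, and all 8 were among the 8343 genes tested. CCT is a double ring in which every ring holds a single copy of each subunit, so that the assembled particle uses the subunit proteins in equal amounts. Newly made actin and tubulin reach it from the cochaperone prefoldin or from chaperones on the ribosome, are enclosed in its cavity, and are released after cycles of ATP binding and hydrolysis. The subunits are related paralogs, and CCT-1 to CCT-8 correspond to the alpha, beta, gamma, delta, epsilon, zeta, eta and theta subunits of mammals.

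Whole worms were sampled in 6 groups of 4 libraries, which combine 3 conditions with 2 mRNA pools. The conditions were wild-type N2 worms fed ad libitum (AL), N2 worms under dietary restriction (DR), and *daf-2;rsks-1* double mutants fed ad libitum, which carry changes in the insulin receptor and in the S6 kinase. Total mRNA came from the unfractionated lysate and translated mRNA from its polysomes. All groups shared 20°C, the OP50 bacterial diet that began to differ at day 1 of adulthood, the drug FuDR that stops progeny, lysis at day 4 and an unstranded polyA library. The labels give the bacterial density on a log10 CFU scale as 11 for AL and 9 for DR, whereas the study's methods print 11 for both diets, so the size of the restriction is uncertain. The mutant alleles are not stated in the labels, the mutant is a single strain, and it was not kept under DR. Each library is a pool of worms of all tissues. In such bulk samples fewer cells of a type and less RNA per cell cannot be told apart.

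The libraries had 7960544 to 15658505 reads on genes, and each CCT gene had 942 to 9865 reads in a library with a median of 3524.5 over the 192 values. The deposited values are CPM, read counts divided by the size of the library after a composition scaling by the authors. The strain labels were checked on *rsks-1*, which had 11.3 to 17.4 CPM in the 8 mutant libraries and 57.0 to 101 CPM in the 16 N2 libraries. The *daf-2* gene had 27.3 to 64.1 CPM over all libraries and does not mark the mutant. No 2 libraries of a group were alike within sampling noise. The labels name no batch.

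The genes lie on 4 chromosomes in the annotation of Ensembl release 115: *cct-1*, *cct-2*, *cct-3* and *cct-4* on chromosome II, *cct-5* and *cct-6* on III, *cct-8* on IV and *cct-7* on V. The encoded proteins have 528 to 548 residues, and the exons cover 1854 bases in *cct-4* to 2602 bases in *cct-3*. Since the libraries are unstranded, exon overlaps with genes on the opposite strand matter. *cct-1* shares 117 exon bases, 6.26% of its exon length, with T05C12.8, and *cct-7* shares 28 bases, 1.24%, with *zig-11*, and reads in these stretches cannot be told apart. The other 6 genes share no exon bases with another gene in this annotation.

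The summed mRNA of the 8 genes was higher under DR in the total pool and lower in the translated pool. Summed over the 8 genes, total mRNA stood at 2173 ± 28.9 CPM (SD, n = 4) with AL feeding and at 2745 ± 29.5 CPM with DR. For translated mRNA the sum was 3247 ± 87.1 CPM with AL feeding and 2529 ± 49.1 CPM with DR. Under the deposited scaling the sum was thus higher on polysomes than in total mRNA under AL and lower on polysomes under DR. In both diets the ranges of the 4 libraries were apart. Median-ratio scaling and TMM over the genes kept raised the log2 difference of translated and total mRNA under DR by a median of 0.11 over all genes. The sum was not computed with them, so its order between the pools under DR may depend on the scaling. The sum is weighted to abundant genes such as *cct-4* and *cct-1*, and the median gene of the 8 differed by 0.08 on the log2 scale between the pools under DR. In the double mutant the sum was 2408 ± 38.8 CPM in total and 2812 ± 53.3 CPM in translated mRNA, between the AL and the DR means in both pools on this scale. As a share of all recovered reads with no further scaling, the 8 genes took 0.209 to 0.227% in total mRNA libraries of AL and 0.282 to 0.290% in those of DR. In translated mRNA libraries they took 0.280 to 0.305% under AL and 0.205 to 0.228% under DR, so the order of the diets does not rest on the composition scaling. Ribosomal RNA genes took 1.88 to 7.77% of the reads in AL and 11.5 to 20.9% in DR translated libraries, which lowers the DR share. In the mutant the 8 genes took 0.261 to 0.267% of the reads in total and 0.303 to 0.332% in translated mRNA libraries. The translated share of the mutant was thus not below that of AL on this measure. These sums are descriptions and were not tested.

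**Figure D1:**
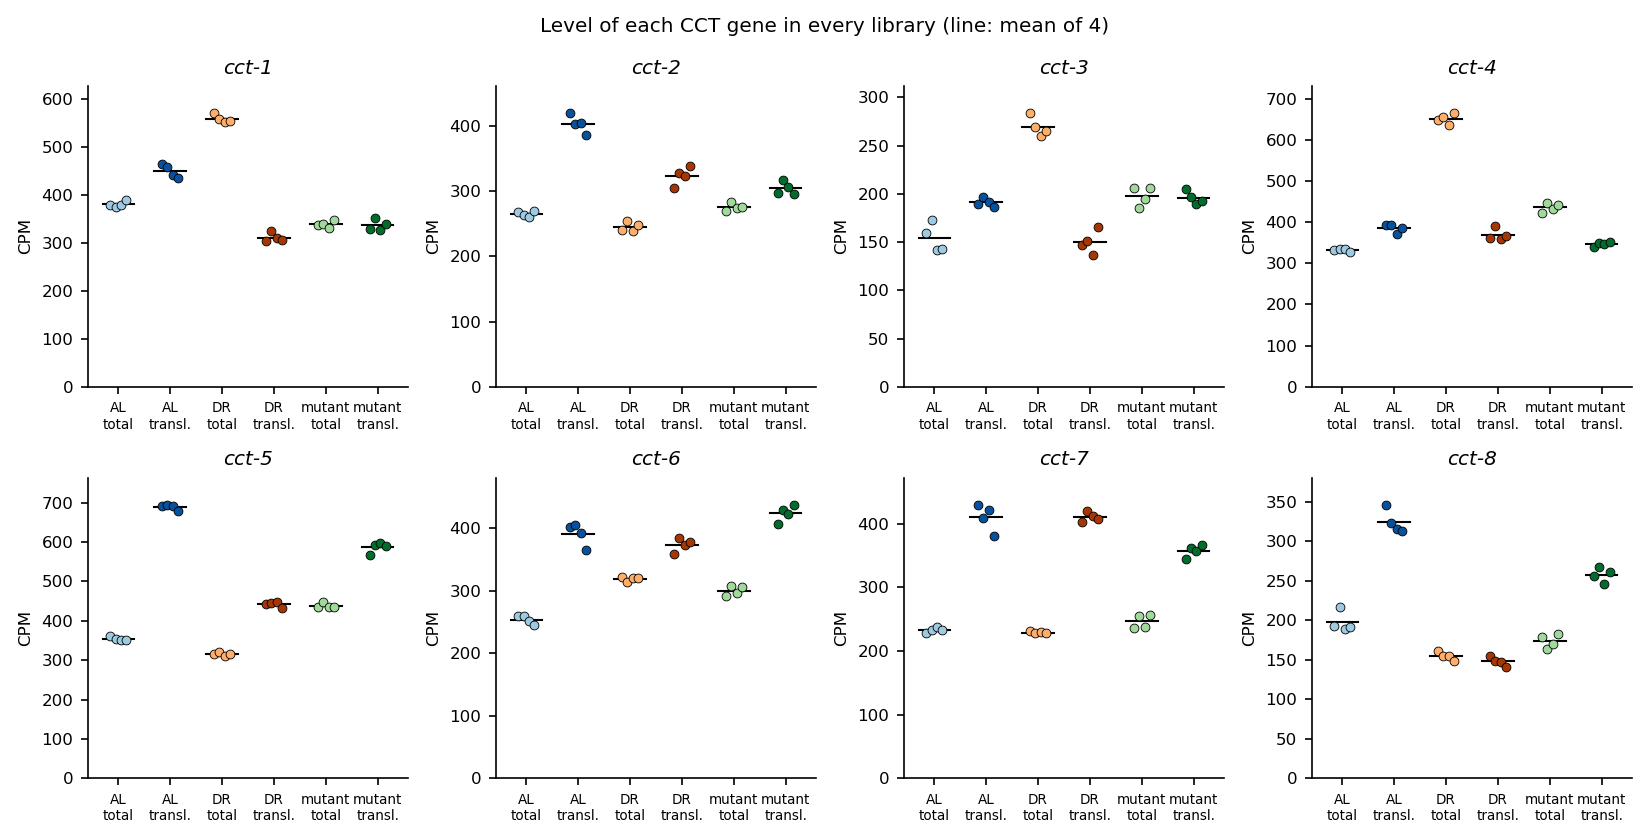
CPM of each CCT gene (8 panels, vertical axis from 0) in each of the 24 libraries, grouped by condition and mRNA pool, with points for libraries and a line for the mean of 4. cct-4 stands at 637 to 664 CPM in DR total mRNA and at 329 to 446 CPM over the libraries of the other 5 groups, whereas cct-7 is at 228 to 238 CPM in total mRNA of both diets.

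Which subunit mRNAs changed in abundance under DR was asked by comparing total mRNA of DR with AL. *cct-4*, *cct-3* and *cct-1* were higher, *cct-6* was slightly higher, *cct-8* was lower, and *cct-5*, *cct-2* and *cct-7* differed little. *cct-4* encodes the delta subunit, which in mammals contacts actin during folding. Its total mRNA was at 333, 336, 336 and 329 CPM in the AL libraries and at 648, 656, 637 and 664 CPM in the DR libraries. All DR libraries were above all AL libraries, and the log2 change was 0.97 (SE 0.03, adjusted p = 3.19e-27, limma). *cct-3*, the gamma subunit gene, was at 160, 172, 142 and 143 CPM under AL and at 284, 270, 260 and 265 CPM under DR. The groups were apart here too, although AL libraries of *cct-3* differed more among themselves, and the log2 change was 0.81 (SE 0.05, adjusted p = 1.38e-17). *cct-1*, the gene of the alpha subunit TCP-1 after which the complex is named, was at 380, 376, 380 and 390 CPM under AL and at 571, 560, 552 and 555 CPM under DR. Its groups did not overlap, with a log2 change of 0.55 (SE 0.03, adjusted p = 7.62e-19).

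The gene of the zeta subunit, *cct-6*, went from 245 to 260 CPM under AL to 315 to 322 CPM under DR, a log2 change of 0.33 (SE 0.03, adjusted p = 1.60e-11). *cct-8*, the theta subunit gene, was at 192, 217, 189 and 192 CPM under AL and at 161, 155, 155 and 148 CPM under DR. All of its DR libraries were below its AL libraries, and the log2 change was -0.35 (SE 0.04, adjusted p = 1.63e-09). The changes of *cct-5* (epsilon) and *cct-2* (beta) were small, with log2 values of -0.17 (adjusted p = 9.46e-07) and -0.12 (adjusted p = 0.00213). With plain CPM *cct-2* no longer passed (-0.06, adjusted p = 0.163). *cct-7* (eta) was at 228, 232, 238 and 233 CPM under AL and at 231, 228, 229 and 229 CPM under DR. Its groups overlapped, with a log2 change of -0.02 and a 95% interval of -0.09 to 0.05 (adjusted p = 0.535).

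Of the 8 genes, 4 were higher and 3 lower at an adjusted p under 0.05, where 34.7% and 45.2% of all genes tested were, so that these counts are near the background. By the call rule used here, an adjusted p under 0.05 with at least a 2-fold change, limma and edgeR each called 0 of 8, against 11.8% of all genes. An unadjusted p under 0.05 was found for 7 of 8. Here and below, counts at an unadjusted p have no share of all genes beside them and are not read as a result. The median log2 change of the 8 was 0.15, beside -0.07 over all genes tested. *cct-4* came closest to the threshold at 1.95-fold, which was above 96.1% of all genes, and *cct-3* was above 94.1%. With reads scaled to plain CPM, *cct-4* passed it with a log2 change of 1.02.

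Some markers of tissues moved with diet in the same libraries. The 14 germline and oocyte markers summed to 9887 to 10291 CPM in AL and 7277 to 7483 CPM in DR total mRNA. At an adjusted p under 0.05, 10 were lower and 3 higher, against 45.2% and 34.7% of all genes. The 5 body wall muscle markers summed to 719 to 750 CPM under AL and 1674 to 1728 CPM under DR, and 5 of 5 were higher. Neuron markers summed to 355 to 377 CPM under AL and 505 to 520 CPM under DR, intestine markers to 247 to 260 CPM and 237 to 241 CPM, and epidermis markers to 269 to 311 CPM and 563 to 609 CPM. The last 2 sums hide mixed members. Of 5 intestine markers, with log2 changes of -1.61 to 0.59, 1 was higher and 1 lower at that threshold. Only 2 of 5 epidermis markers were tested, 1 higher at 1.03 and 1 lower at -0.82. No marker was at 0 in all libraries of a group. The part of tissue composition in the CCT levels was not tested.

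On polysomes 5 of the 8 CCT genes were lower under DR at an adjusted p under 0.05, against 47.6% of all genes tested. The others passed in neither direction under the deposited scaling. *cct-8* fell most of the 8. Its translated mRNA was at 346, 323, 315 and 313 CPM under AL and at 155, 149, 147 and 141 CPM under DR. The groups were far apart, and the log2 change was -1.13 (SE 0.04, adjusted p = 1.19e-24), which is 2.19-fold lower. *cct-5* was at 692, 694, 692 and 680 CPM under AL and at 443, 444, 447 and 433 CPM under DR. Libraries of a diet agreed closely for this gene, and its log2 change was -0.64 (SE 0.03, adjusted p = 6.65e-23). *cct-1* was at 466, 459, 443 and 436 CPM under AL and at 305, 324, 311 and 306 CPM under DR, a log2 change of -0.53 (SE 0.03, adjusted p = 1.84e-18). Thus *cct-1* was higher in total mRNA and lower on polysomes under the same diet.

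*cct-3* showed the same opposition, with 187 to 197 CPM under AL and 137 to 166 CPM under DR and a log2 change of -0.35 (SE 0.05, adjusted p = 4.84e-08). *cct-2* was at 386 to 420 CPM under AL and 305 to 339 CPM under DR, a log2 change of -0.32 (SE 0.03, adjusted p = 5.14e-11). For *cct-4* the translated mRNA was at 392, 393, 372 and 385 CPM under AL and at 361, 390, 358 and 367 CPM under DR. These groups overlapped, and the log2 change of -0.06 had a 95% interval of -0.12 to -0.0019 (adjusted p = 0.0532). The near doubling of its total mRNA was therefore not seen on polysomes. *cct-6* had a log2 change of -0.06 (95% interval -0.13 to 0.0029, adjusted p = 0.0722) and *cct-7* of 0.0032 (95% interval -0.07 to 0.07, adjusted p = 0.932). These 3 small values depend on the scaling: with plain CPM *cct-4*, *cct-6* and *cct-7* passed as lower at -0.17, -0.17 and -0.11, and with the other 3 scalings *cct-7* passed as higher at 0.08 to 0.09.

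In translated mRNA, 5 of 8 genes were lower at an adjusted p under 0.05, against 47.6% of all genes, and 1 of 8 was called lower at 2-fold, *cct-8*, against 8.17%. These counts are near the background. The median log2 change of the 8 was -0.33, beside -0.10 over all genes. In this pool the reads on F31C3.9, which holds most of the ribosomal RNA reads, took 1.87 to 7.70% of the AL libraries and 11.4 to 20.8% of the DR libraries. They lower the plain CPM of every other gene in DR translated mRNA, and the scaling of the authors compensates for a part of that. Measured from the median of all genes tested, which takes any library scaling out by construction, the log2 change of *cct-8* was -1.03. On that measure *cct-4*, *cct-6* and *cct-7* were at 0.03 to 0.10 and *cct-5* at -0.54.

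**Figure D2:**
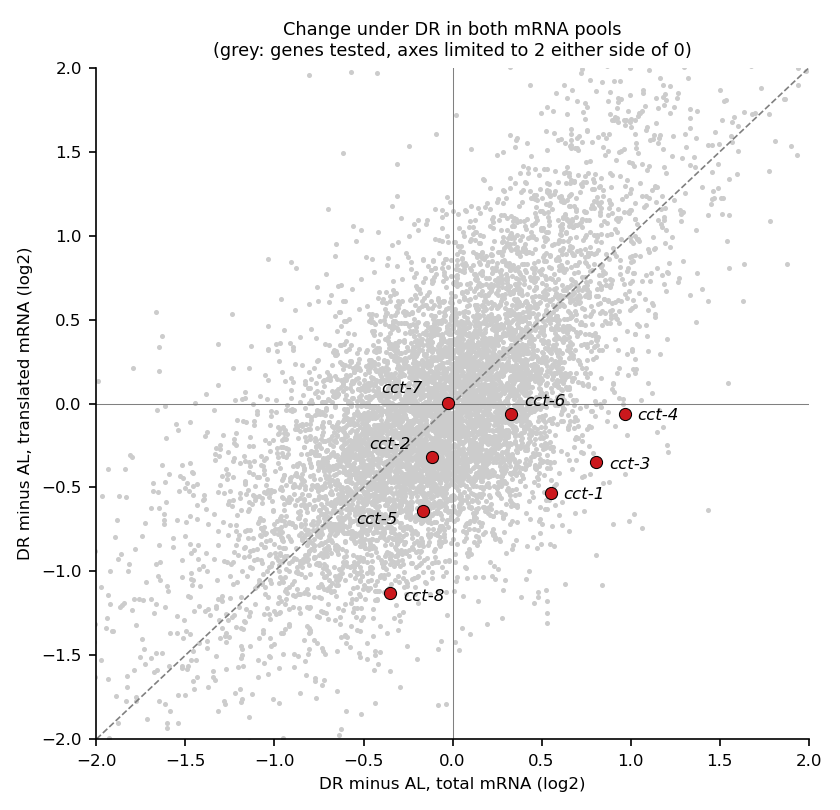
Log2 change from AL to DR in total mRNA (horizontal axis) and in translated mRNA (vertical axis), red for the 8 CCT genes and grey for the other genes tested, with equal change on the dashed line. cct-1, cct-3 and cct-4 lie right of 0 and well below the line, cct-8 is lowest at -1.13, and cct-7 lies near the origin.

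Whether the relative polysome level of a transcript depended on diet was measured as DPAR. This is the change of translated against total mRNA under DR minus that under AL, on the log2 scale. Each pool is scaled to its own library, so the fraction of a transcript's molecules on polysomes is not measured. The study states that global translation is lower under DR and that DPAR follows only relative changes. *cct-3*, *cct-1* and *cct-4* had the lowest values of the 8 genes. DPAR was -1.16 for *cct-3* (SE 0.07, adjusted p = 3.70e-17), -1.08 for *cct-1* (SE 0.04, adjusted p = 1.26e-22) and -1.03 for *cct-4* (SE 0.04, adjusted p = 2.99e-22). These are 2.23-fold, 2.12-fold and 2.04-fold lower relative polysome levels. Only 1.07%, 1.23% and 1.63% of all genes tested had a lower DPAR than these 3. Next came *cct-8* at -0.78 (SE 0.06, adjusted p = 2.76e-14), *cct-5* at -0.48 (SE 0.04, adjusted p = 1.15e-13) and *cct-6* at -0.39 (SE 0.05, adjusted p = 2.26e-09). *cct-2* was at -0.20 (SE 0.05, adjusted p = 0.000307), and *cct-7* was at 0.03 with a 95% interval of -0.07 to 0.12 (adjusted p = 0.639), in the middle of all genes (-0.14 with plain CPM and 0.10 with TMM over the genes kept, where it passed as lower and as higher). The subunit genes of a single complex thus ranged from -1.16 to 0.03 in this measure.

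Of the 8 genes, 3 were called lower at 2-fold by limma and by edgeR, against 1.79% of all genes tested, and 7 were lower at an adjusted p under 0.05 at any fold, against 32.0%. The median of the 8 was -0.63, beside 0.02 over all genes. The call for *cct-4* rests on a value near the threshold: it was at -0.96 with reads scaled to coding genes, with median-ratio scaling and with TMM over the genes kept, so that it was then not called. Under the deposited scaling 149 genes were called lower and 324 higher, under plain CPM 284 and 203, and under the other 3 scalings 107 to 113 and 413 to 419. Relative to the median of all genes, a measure from which scaling cancels, *cct-4* was at -1.05, *cct-1* at -1.11 and *cct-3* at -1.18. Without any 1 of the 24 libraries, the DPAR of *cct-3* was -1.21 to -1.11, that of *cct-1* -1.10 to -1.07 and that of *cct-4* -1.06 to -1.02, with 3 genes called each time.

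The path to these values differed among the genes. For *cct-4* the lower DPAR came with higher total mRNA and a translated level that overlapped between diets. For *cct-1* and *cct-3* it came with higher total and lower translated mRNA. For *cct-8* and *cct-5* both pools were lower, the translated pool more. The *cct-7* libraries of the diets overlapped in both pools under the deposited scaling. In DR translated mRNA the germline markers summed to 3462 to 3654 CPM, below the 5694 to 6102 CPM of AL translated mRNA, and muscle markers to 2498 to 2648 CPM, above the 687 to 761 CPM of AL. Of the 14 germline markers 7 had a lower DPAR at an adjusted p under 0.05, against 32.0% of all genes, and 3 a higher one. Counts of genes higher in DPAR under DR have no share of all genes beside them, here and below. Such counts, and those of genes higher in DR translated mRNA, are not read as a result. The values of the germline markers ran from -0.87 to 0.57 with a median of -0.16. The 5 muscle markers ran from 0.34 to 0.86 with a median of 0.54, beside 0.02 over all genes. The part of these tissues in the CCT values was not tested.

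Translated against total mRNA within each condition gives the 2 sides of this measure. At an adjusted p under 0.05 all 8 genes were higher on polysomes than in total mRNA of AL worms, against 44.8% of all genes tested. The log2 difference ranged from 0.21 (SE 0.03) for *cct-4* to 0.96 (SE 0.03) for *cct-5*, with 0.81 for *cct-7*, 0.71 for *cct-8*, 0.62 for *cct-6*, 0.60 for *cct-2*, 0.31 for *cct-3* and 0.24 for *cct-1*. With plain CPM *cct-4* did not pass (0.08, adjusted p = 0.0769), which leaves 7 of 8. The median was 0.61, beside 0.04 over all genes. No gene reached 2-fold by limma or edgeR, against 16.0% of all genes called, and all 8 had an unadjusted p under 0.05. *cct-1*, *cct-3* and *cct-4* already had the lowest values of the 8 under AL.

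Under DR the genes separated. *cct-7* (0.84), *cct-5* (0.48), *cct-2* (0.40) and *cct-6* (0.23) were higher on polysomes, and *cct-3* (-0.85), *cct-1* (-0.84) and *cct-4* (-0.82) were lower, each with an SE of 0.03 to 0.05. The value of *cct-8* was -0.07 with a 95% interval of -0.15 to 0.02 (adjusted p = 0.139). Thus 4 were higher and 3 lower at an adjusted p under 0.05, against 43.4% and 45.4% of all genes. By the 2-fold rule limma and edgeR each called 0 of 8, against 32.7% of all genes, while 7 of 8 had an unadjusted p under 0.05. The median of the 8 was 0.08, beside -0.02 over all genes. The split depends on the scaling: *cct-8* passed as lower with plain CPM (-0.36) and with scaling to coding genes (-0.13), and *cct-6* was at -0.07 with plain CPM. With plain CPM, *cct-1*, *cct-3* and *cct-4* passed 2-fold at -1.14, -1.14 and -1.12.

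**Figure D3:**
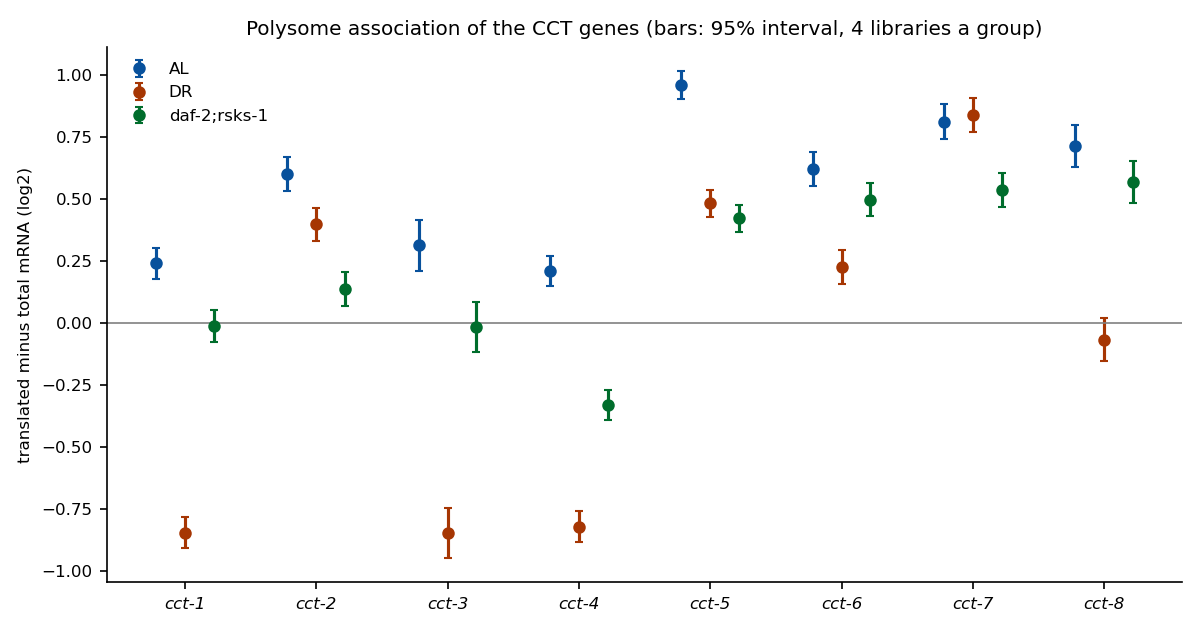
Log2 difference of translated and total mRNA for each CCT gene (points with 95% intervals from limma, n = 4 libraries a group) under AL, under DR and in the daf-2;rsks-1 mutant. All 8 genes are above 0 under AL, whereas cct-1, cct-3 and cct-4 lie at -0.82 to -0.85 under DR, and cct-7 stays at 0.81 and 0.84.

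Levels were compared between the genes only after division by exon length, as CPM per kb, and within each library as a share of the 8 genes together, which no scaling of the library can change. Equal amounts would give each gene 12.5%. In AL total mRNA *cct-1* had the highest share at 18.8% ± 0.463 (SD, n = 4), followed by *cct-5* at 16.9% and *cct-4* at 16.6%, and *cct-3* had the lowest at 5.46% ± 0.459. The *cct-3* gene has the longest annotated exons, and a shorter transcript in these worms would raise its value per kb. On this scale the order in AL total mRNA was *cct-1* (204 CPM per kb), *cct-5* (183), *cct-4* (180), *cct-2* (138), *cct-6* (133), *cct-7* (103), *cct-8* (83.8) and *cct-3* (59.3). Only *cct-2* and *cct-6* overlapped as neighbours in that order, and the highest and lowest genes differed 3.45-fold.

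Under DR the order in total mRNA changed at its head. *cct-4* led with 25.5% ± 0.351 (351 CPM per kb), *cct-1* followed with 21.7% ± 0.205, and these 2 genes together stood well above *cct-6* at 12.1% and *cct-5* at 11.9%, which overlapped. *cct-8* had the lowest share at 4.76% ± 0.157, and the top gene was 5.35-fold above it. In translated mRNA of the same diet *cct-5* led with 18.2% ± 0.443, *cct-4* had 15.8% ± 0.353 and *cct-1* 13.2% ± 0.201, while *cct-7* had 14.4% ± 0.120, beside 7.35% in total mRNA. *cct-3* (4.58%) and *cct-8* (4.98%) were lowest on polysomes under DR and overlapped each other per kb. Under AL *cct-5* was clearly highest on polysomes at 22.1% ± 0.419, followed by *cct-1* at 14.8 to 15.1%, and *cct-2*, *cct-4* and *cct-6* overlapped at 209, 208 and 205 CPM per kb. The shares of mRNA were thus unequal in every group, and these shares say nothing of the amounts of protein.

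**Figure D4:**
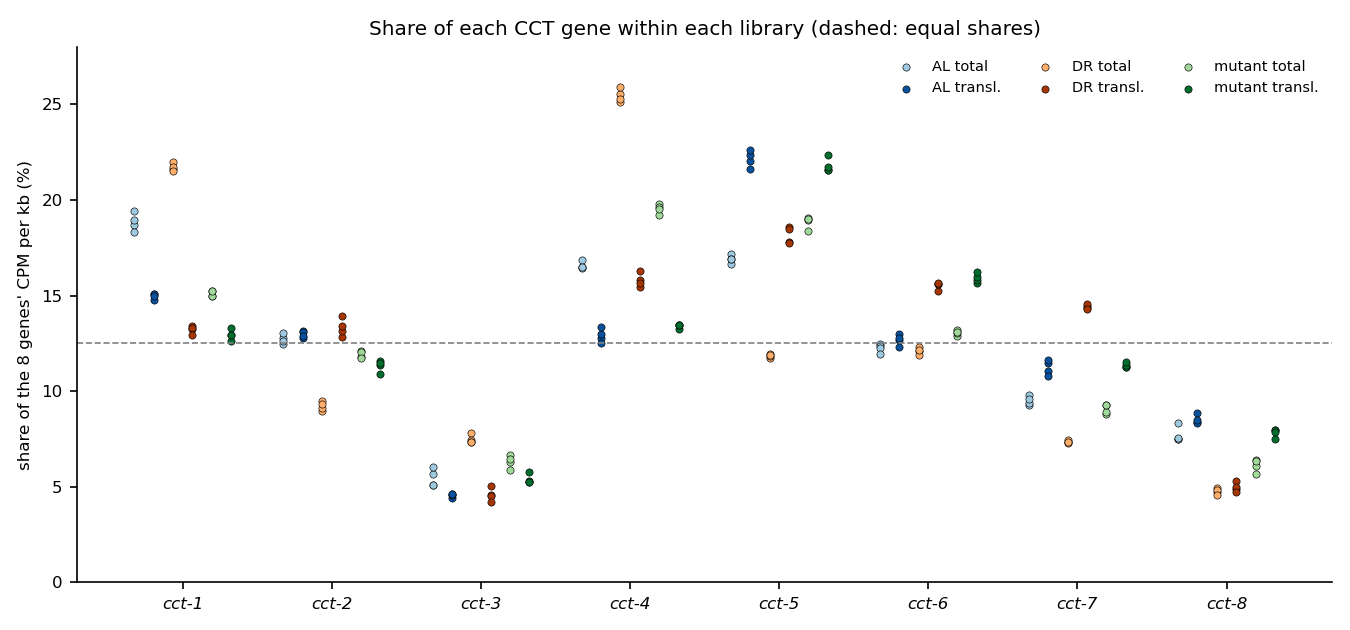
Share of each CCT gene in the summed CPM per kb of the 8 genes (percent, vertical axis from 0), 1 point per library, coloured by condition and mRNA pool, with equal shares dashed at 12.5%. cct-4 and cct-1 take 25.5% and 21.7% of DR total mRNA on average, and cct-5 takes the highest share of translated mRNA in each condition.

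The genes also differed in how they moved across the 24 libraries. The log2 values of *cct-1*, *cct-3* and *cct-4* had Pearson's r of 0.72 to 0.84 with each other, and those of *cct-2*, *cct-5* and *cct-7* of 0.80 to 0.88 with each other. Between *cct-4* and *cct-5* r was -0.50. With the mean of the other 7 genes, r was 0.71 for *cct-6*, 0.64 for *cct-2*, 0.63 for *cct-5*, 0.55 for *cct-8*, 0.45 for *cct-7*, 0.16 for *cct-3*, 0.12 for *cct-1* and -0.15 for *cct-4*. Ranked by that measure among all genes tested outside the other 7, *cct-6* stood at place 82 and *cct-4* at place 4773. The 24 points share 6 group means, library composition and depth, and these correlations are descriptions of groups seen after the values were known.

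The 10 genes outside CCT whose log2 values had the highest r with the mean of the 8 over 24 libraries were *tars-1* (0.97), *copg-1* (0.91), *csn-5* (0.91), *gsr-1* (0.91), *dars-1* (0.89), *unc-18* (0.87), *sgt-1* (0.86), *apm-3* (0.84), *asb-1* (0.84) and *trap-1* (0.84). With plain CPM 6 of these 10 stayed among the first 10. *tars-1* and *dars-1* encode aminoacyl-tRNA synthetases for threonine and aspartate, and *copg-1* a coatomer subunit. Their DPAR under DR was -0.97 for *asb-1*, -0.65 for *copg-1* and -0.38 to -0.62 for the other 8. For *tars-1* the log2 change under DR was 0.20 in total and -0.30 in translated mRNA, beside medians of 0.15 and -0.33 for the CCT genes. These 10 genes were picked by their likeness to the CCT mean in the same libraries. Their closeness to the CCT values therefore follows from the choice and is no separate result.

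The double mutant was set against AL with the same AL libraries that serve the comparison with DR. In total mRNA *cct-4* was at 423, 446, 431 and 443 CPM, above the AL libraries, with a log2 change of 0.39 (SE 0.03, adjusted p = 2.35e-14), beside 0.97 under DR. *cct-5* was at 434, 448, 435 and 434 CPM, also above AL, with 0.31 (SE 0.03, adjusted p = 7.78e-13), beside -0.17 under DR. *cct-3* was higher by 0.36, *cct-6* by 0.24 and *cct-7* by 0.08, *cct-8* and *cct-1* were lower at -0.18 and -0.17, and *cct-2* had 0.06 (adjusted p = 0.126). The lower values depend on the scaling. *cct-1* no longer passed with plain CPM (-0.04, adjusted p = 0.351) or TMM over the genes kept (-0.06, adjusted p = 0.0720), and *cct-8* did not with these (-0.06 and -0.07) or with scaling to coding genes (-0.08). At an adjusted p under 0.05, 5 genes were higher and 2 lower, against 29.4% and 48.4% of all genes. Neither limma nor edgeR called any of the 8 at 2-fold (0 of 8, against 7.74% of all genes), and 7 of 8 had an unadjusted p under 0.05. The median of the 8 was 0.16, beside -0.11 over all genes.

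On polysomes of the mutant *cct-1* was at 329, 353, 327 and 341 CPM and *cct-2* at 298, 317, 307 and 296 CPM. Both were below all AL libraries, with log2 changes of -0.42 (SE 0.03, adjusted p = 3.13e-15) and -0.40 (SE 0.03, adjusted p = 9.44e-14). *cct-8* (-0.33), *cct-5* (-0.23), *cct-7* (-0.19) and *cct-4* (-0.15) were lower too, *cct-6* was higher at 0.12, and *cct-3* had 0.03 (adjusted p = 0.545). These are 6 lower and 1 higher at an adjusted p under 0.05, against 45.9% and 33.0% of all genes. At 2-fold limma and edgeR called 0 of 8, against 11.1%, with 7 of 8 at an unadjusted p under 0.05. The direction of *cct-4*, *cct-5* and *cct-7* depends on the scaling: with plain CPM they were at 0.16, 0.08 and 0.11, and with scaling to coding genes at 0.17, 0.09 and 0.13. *cct-8* no longer passed under these scalings (-0.02 and -0.0073), and *cct-3* passed as higher under the 4 other scalings, at 0.12 to 0.36. Plain CPM and scaling to coding genes raised the median of all genes by 0.30 and 0.32 in this comparison. Relative to that median, *cct-1* was at -0.34, *cct-2* at -0.32 and *cct-6* at 0.20.

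At the same threshold 5 genes of the mutant were higher on polysomes than in total mRNA, against 41.0% of all genes, and 1 was lower, *cct-4*, against 43.4%. The values were 0.57 for *cct-8*, 0.54 for *cct-7*, 0.50 for *cct-6*, 0.42 for *cct-5* and 0.14 for *cct-2*, and -0.33 (SE 0.03, adjusted p = 1.17e-12) for *cct-4*. *cct-1* had -0.01 (95% interval -0.07 to 0.05, adjusted p = 0.748) and *cct-3* -0.02 (95% interval -0.12 to 0.08, adjusted p = 0.760). No gene was called at 2-fold by limma or edgeR (0 of 8, against 14.1% of all genes), and 6 of 8 had an unadjusted p under 0.05. As in the wild type on either diet, *cct-1*, *cct-3* and *cct-4* had the lowest values of the 8.

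DPAR of the mutant against AL was lower for all 8 genes at an adjusted p under 0.05, against 28.6% of all genes. The lowest were *cct-4* at -0.54 (SE 0.04, adjusted p = 1.88e-13), *cct-5* at -0.54 (SE 0.04, adjusted p = 9.24e-15) and *cct-2* at -0.46 (SE 0.05, adjusted p = 1.85e-10). *cct-3* (-0.33), *cct-7* (-0.28), *cct-1* (-0.25), *cct-8* (-0.15) and *cct-6* (-0.12) followed. Limma and edgeR called 0 of 8 at 2-fold, against 1.75% of all genes, with 8 of 8 at an unadjusted p under 0.05. The directions of *cct-6* and *cct-8* turned to 0.06 and 0.04 with plain CPM and to 0.09 and 0.07 with scaling to coding genes, and under those scalings *cct-2*, *cct-4* and *cct-5* alone passed as lower. Leaving out 1 library ended the call for *cct-6* or *cct-8* in several cases. Relative to the median of all genes, the 8 values ran from -0.52 for *cct-4* to -0.11 for *cct-6*. Side by side with DR, *cct-1* and *cct-3* had -1.08 and -1.16 under DR and -0.25 and -0.33 in the mutant, whereas *cct-2* had -0.20 and -0.46 and *cct-7* 0.03 and -0.28.

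Set directly against DR worms, mutant total mRNA had *cct-1* at -0.72 (SE 0.03, adjusted p = 1.10e-22), *cct-4* at -0.58 (SE 0.03, adjusted p = 5.24e-20) and *cct-3* at -0.44 (SE 0.05, adjusted p = 2.29e-10). *cct-5* was higher in the mutant at 0.47 (SE 0.03, adjusted p = 1.28e-18). In all 4 genes were higher and 4 lower at an adjusted p under 0.05, against 40.2% and 42.2% of all genes. At 2-fold limma and edgeR called 0 of 8, against 14.9% of all genes, with 8 of 8 at an unadjusted p under 0.05. In translated mRNA *cct-8* had the largest difference of the 8, at 256, 267, 246 and 262 CPM in the mutant and 141 to 155 CPM under DR, a log2 difference of 0.80 (SE 0.04, adjusted p = 7.17e-20). It passed 2-fold with plain CPM (1.22) and with scaling to coding genes (1.03). Here 5 genes were higher and 3 lower, against 42.1% and 41.0%, and limma and edgeR called 0 of 8, against 16.9%, with 8 of 8 at an unadjusted p under 0.05. The 3 lower genes turned with the scaling: *cct-2*, *cct-4* and *cct-7* were at 0.33, 0.33 and 0.22 with plain CPM and at 0.15, 0.14 and 0.04 with scaling to coding genes. The mutant and the DR worms differ in both strain and diet, which cannot be told apart here.

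Genes that work with CCT were read from lists chosen with earlier results of these data known. Prefoldin, the complex that hands unfolded actin and tubulin to CCT, has 6 genes. Their total mRNA passed as higher under DR for 4 and as lower for 1, against 34.7% and 45.2% of all genes (median of the log2 values 0.26). On polysomes 1 passed as higher and 4 as lower, where 47.6% of all genes were lower (median -0.38). DPAR was lower in 5 of 6 genes, against 32.0% of all genes, with a median of -0.56. *pfd-5* had -0.93 (SE 0.06), *pfd-4* -0.75 (SE 0.07), and *pfd-6* -0.05 (adjusted p = 0.421). In mutant total mRNA, by contrast, all 6 prefoldin genes were lower, against 48.4% of all genes, with a median of -0.54, where the median of the CCT genes was 0.16.

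The chaperones that bind chains at the ribosome showed a similar DPAR in part. *icd-1* and *icd-2*, the subunits of the nascent polypeptide associated complex, had -1.06 (SE 0.04) and -0.59 (SE 0.05), and *dnj-11* had 0.09 (adjusted p = 0.178). *icd-1* was called lower, 1 of 3 genes, against 1.79% of all genes. In the HSP90 and HSP70 system of the cytosol 4 of 15 genes were called lower in DPAR under DR, against 1.79% of all genes. These were *ahsa-1*, the activator of the HSP90 ATPase, at -1.61 (SE 0.05), *dnj-19* at -1.09 (SE 0.04), *daf-21*, the HSP90 gene, at -1.07 (SE 0.04), and the HSP90 cochaperone *daf-41* at -1.01 (SE 0.05). The total mRNA of these 4 was higher under DR, by 0.90, 0.79, 0.36 and 0.23, and their translated mRNA lower. The other 11 genes of that list were not called. At an adjusted p under 0.05, 7 of the 15 were lower, against 32.0% of all genes, and 5 were higher, as *dnj-13* at 0.49. The median was -0.12, beside 0.02 over all genes. *daf-41* is named as part of the 4 called genes after its value was seen.

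The substrates of CCT did not move as a group. Among the 5 actin genes DPAR under DR had a median of 0.49, with *act-5* at 1.07 (SE 0.05), called higher, *act-4* at 0.83 (SE 0.06) and *act-2* at -0.37 (SE 0.04). Actin genes are near-identical copies, and reads that fit several of them may be split or lost in counting, so single values are uncertain. Among 16 tubulin genes 10 passed the filter on low values. *tba-7* had a DPAR of 1.25 (SE 0.08), called higher, *mec-12* of 0.88 and *tba-1*, an abundant alpha tubulin, of -0.86 (SE 0.04). The median was -0.31, beside 0.02 over all genes. At an adjusted p under 0.05, 6 were lower, against 32.0% of all genes, and 4 were higher. Tubulin genes also share sequence. The 5 genes of the tubulin cofactor list, which act after CCT, had a median of -0.05. At an adjusted p under 0.05, 2 of them were lower, against 32.0% of all genes, and 1 was higher.

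The mitochondrial chaperonin, a group I chaperonin that folds matrix proteins, differed from CCT. *hsp-60* total mRNA was called lower under DR at -1.04 (SE 0.04), its translated mRNA was at -0.52, and its DPAR was 0.52 (SE 0.06). The cochaperonin gene Y22D7AL.10 had a DPAR of -0.31 (SE 0.06). *hsf-1*, the transcription factor of cytosolic chaperone genes, was at 92.4 ± 2.25 CPM in AL and 47.3 ± 0.989 CPM in DR total mRNA, a log2 change of -0.96 (SE 0.06, adjusted p = 3.81e-18), just under 2-fold. Its translated mRNA was at -0.29 and its DPAR at 0.66 (SE 0.08, adjusted p = 3.32e-09). The total mRNA of *hsf-1* and of *cct-4* thus changed in opposite directions under DR. This did not hold for the set: 4 CCT genes passed as higher and 3 as lower, *cct-8* (-0.35), *cct-5* (-0.17) and *cct-2* (-0.12).

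**Figure D5:**
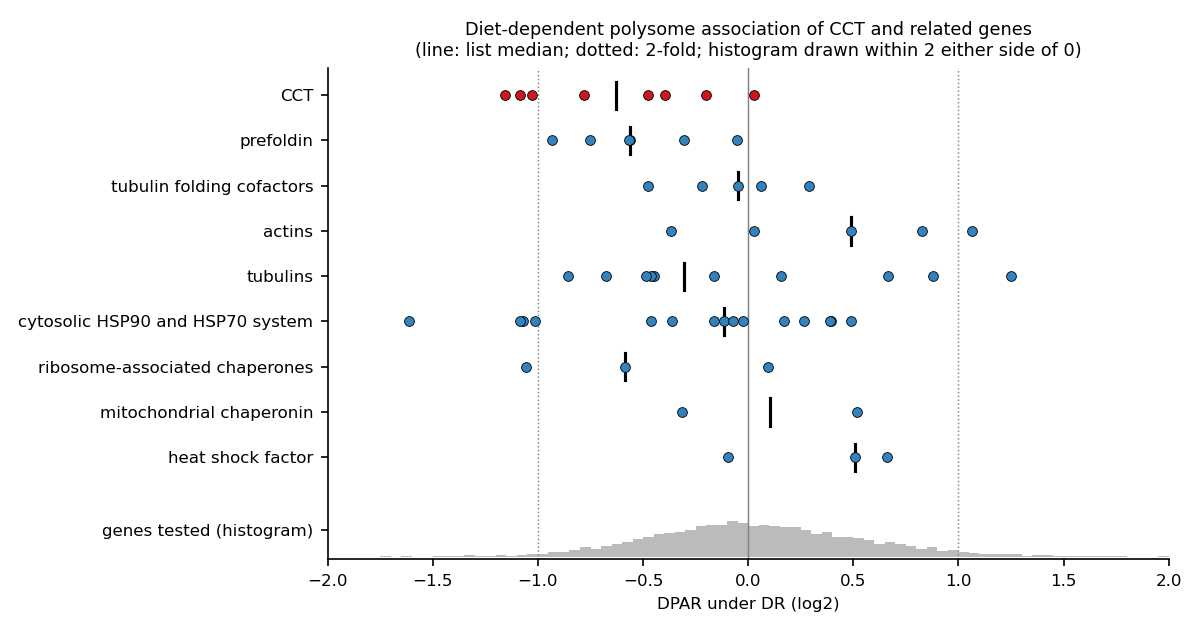
DPAR under DR (log2, horizontal axis) of the 8 CCT genes (red) and of related gene lists (blue), a point for each gene tested, with the list median as a line, 2-fold dotted and a histogram of all genes tested below. The medians are -0.63 for CCT and -0.56 for prefoldin, beside 0.49 for actins and 0.02 for all genes.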

How the data were processed

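RNA was sequenced from total and polysome-bound mRNA of whole worms, 24 libraries in 6 groups of 4. Per the labels and the study's methods, the authors demultiplexed reads with bcl2fastq (version 2.20), used TopHat and the WS220 genome for alignment, counted reads per Ensembl release 66 gene with HTSeq (version 0.6.1) and scaled them with edgeR (version 3.0). The deposited values are a signal, read counts per library size (CPM) after composition scaling. Multiplying back gave whole reads for 100% of 1091064 values (within 0.05 reads), and the deposited factor equals TMM computed from these reads. No column was without a sample (0).

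Here log2(value + 0.5) was fitted with limma (version 3.58.1, R version 4.3.3), trended variance, in a single model over the 6 groups. A fold change on this scale slightly understates changes of low genes. Genes tested were the 8343 protein coding genes with a mean of at least 8 CPM, p-values were adjusted by Benjamini-Hochberg over all of them, and a call needed an adjusted p under 0.05 and at least 2-fold. edgeR (version 4.0.16) on the recovered reads was an alternative, as were other pseudocounts, filters, scalings, sample sets and replicate terms. The steps were tested on simulated data. Gene types, exon lengths, exon overlaps and chromosomes came from Ensembl release 115, which matched 44933 of 45461 genes. Coordinates are not printed since the builds differ. The overlaps may differ from those of the release 66 genes that were counted.

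The members and lists were chosen with earlier results of these data known. Named beyond the CCT genes were, per list and comparison, at most the 2 highest and 2 lowest genes, *daf-21*, *hsf-1*, *daf-41* (outside this rule, after its value was seen), the 10 genes most like the CCT mean, the gene with most ribosomal RNA reads, and *daf-2* and *rsks-1*. The study describes the 4 AL and the 4 DR libraries of each pool as biological replicates. For the mutant the labels give separate samples, and p-values there measure the spread between these samples, which may be technical.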

Additional observations from a re-analysis of the deposited data

Results flagged for a closer look

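Among 48 groups of 4 values of the CCT genes, 3 held a library far from the other 3, and chance alone gives about 1 in 20. *cct-5* in AL translated mRNA was at 679.7 CPM in library 4 and at 692 to 694 CPM in the others. *cct-5* in mutant total mRNA was at 447.8 CPM in library 2 and at 434 to 435 CPM in the others. *cct-8* in AL total mRNA was at 216.7 CPM in library 2 and at 189 to 192 CPM in the others.

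The difference of translated and total mRNA itself differed between DR and AL, by the limma interaction test, for 7 genes: *cct-3* (-1.16), *cct-1* (-1.08), *cct-4* (-1.03), *cct-8* (-0.78), *cct-5* (-0.48), *cct-6* (-0.39) and *cct-2* (-0.20). All 7 were lower, as 32.0% of all genes tested were at an adjusted p under 0.05. Between the mutant and AL it differed for 8 genes: *cct-4* (-0.54), *cct-5* (-0.54), *cct-2* (-0.46), *cct-3* (-0.33), *cct-7* (-0.28), *cct-1* (-0.25), *cct-8* (-0.15) and *cct-6* (-0.12). All 8 were lower, as 28.6% of all genes tested were. With plain CPM and with scaling to coding genes, only *cct-2*, *cct-4* and *cct-5* passed in the mutant, and *cct-6* and *cct-8* turned direction. Both sets of values use the same AL libraries.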

How the results depend on the processing

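For the 8 CCT genes the scaling changed more tests than the other choices did, since it shifts all genes together, whereas counts over all genes also moved with the filter on low values. Values here follow the order plain CPM, scaling to coding genes, median-ratio scaling and TMM over the genes kept, as far as each moved. The median log2 value of the 8 CCT genes in DR against AL was 0.21 (plain CPM) in total and -0.44, -0.25, -0.25 and -0.26 in translated mRNA. In the mutant against AL it was 0.29, 0.27, 0.19 and 0.27 in total and 0.095, 0.11, -0.13 and -0.13 on polysomes. The translated pool against the total pool had 0.48, 0.48, 0.66 and 0.65 under AL, -0.22, 0.017, 0.19 and 0.19 under DR, and 0.33, 0.37 and 0.38 in the mutant. DPAR had -0.79, -0.56, -0.56 and -0.55 under DR, and -0.12, -0.085 and -0.25 in the mutant. The mutant against DR had 0.078, 0.089 and (TMM) 0.12 in total and 0.56 and 0.38 in translated mRNA.

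At 2-fold, plain CPM called 1 gene higher in DR total mRNA (*cct-4*), 3 lower on polysomes within DR, and 1 higher in the mutant against DR on polysomes (*cct-8*). Scaling to coding genes also called that 1, and median-ratio scaling called 1 higher on polysomes under AL (*cct-5*, 1.01). Turned directions are listed only where the test passed at an adjusted p under 0.05 in either fit. Values near 0 that passed in neither, as *cct-7* in DR total mRNA, could also change sign with the scaling. Directions that turned with plain CPM were *cct-7* in DR translated mRNA (-0.11) and DPAR under DR (-0.14), *cct-6* on polysomes within DR (-0.070), *cct-4*, *cct-5* and *cct-7* in mutant translated mRNA (0.16, 0.076 and 0.11, and with coding genes 0.17, 0.090 and 0.13), *cct-6* and *cct-8* in DPAR of the mutant (0.061 and 0.039, and with coding genes 0.094 and 0.073), and *cct-2*, *cct-4* and *cct-7* in the mutant against DR on polysomes (0.33, 0.33 and 0.22, and with coding genes 0.15, 0.14 and 0.035). *cct-1* on polysomes within the mutant turned to 0.077 with coding genes and 0.093 with median-ratio scaling, and *cct-6* in the mutant against DR total mRNA to 0.019 with TMM over the genes kept.

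Over all genes tested, DPAR under DR had 324 genes called higher and 149 lower, and 579 and 432 with no filter on low values. DPAR of the mutant had 44 and 102, against 118 and 28 with plain CPM, 155 and 24 with coding genes, and 94 and 168 with no filter. Mutant translated mRNA had 408 and 517, against 793 and 263 with plain CPM and 817 and 250 with coding genes, and the mutant against DR on polysomes 719 and 694, against 1538 and 323, and 1098 and 449. Translated against total mRNA had 400 higher under AL, against 153 and 164, and 1403 higher and 1325 lower under DR, against 876 and 2011 with plain CPM. Within the mutant it had 378 higher, against 575 with coding genes and 598 with median-ratio scaling. With no filter, DR total mRNA had 719 and 1177 in place of 298 and 684, DR translated mRNA 1365 and 1344 in place of 587 and 682, mutant total mRNA 1103 and 487 in place of 377 and 269, mutant translated mRNA 1111 and 847, and the mutant against DR 1922 and 873 in place of 827 and 420 in total mRNA and 1746 and 1316 on polysomes.

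Leaving out each library in turn kept the number of CCT genes called. It turned no direction of a test that passed at an adjusted p under 0.05 with or without the library. Some values near 0 that did not pass changed sign. These were *cct-7* in DR translated mRNA (-0.03 to 0.03) and in DPAR under DR (-0.0090 to 0.050). Within the mutant they were *cct-1* (-0.033 to 0.0042) and *cct-3* (-0.048 to 0.0038) on polysomes. At an adjusted p under 0.05 the omissions left 2086 member tests on their side, ended 20 and added 6. The median DPAR was then -0.65 to -0.61 under DR and -0.33 to -0.28 in the mutant. Ended were *cct-8* in DPAR of the mutant (8 of 24 omissions: AL total 1, 3 and 4, AL translated 1 and 2, mutant total 1 and 4, mutant translated 3), *cct-6* there (4: AL total 4, AL translated 1 and 2, mutant total 2), *cct-7* in mutant total mRNA (4: AL total 1 and 2, mutant total 2 and 4), and in the mutant against DR *cct-6* in total mRNA (mutant total 1) and *cct-2* (DR translated 4, mutant translated 4) and *cct-4* (DR translated 2) on polysomes. Added were *cct-4* (AL translated 3, DR translated 2, mutant translated 1) and *cct-6* (AL translated 4, DR translated 2, mutant translated 1) in DR translated mRNA, at log2 values of -0.10 to -0.06. Pseudocounts, gene types and edgeR changed no test of the 8 genes. Replicate numbers did not pair the samples (correlations of deviations -0.10 to 0.08 within a condition), and with the replicate block 3 genes were still called in DPAR under DR, its median was -0.63, and *cct-4* in DR translated mRNA passed at an adjusted p of 0.0475 (limma). Depth was not limiting for these genes, at 942 reads or more in each library.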
